A study of Sus scrofa with 15 samples.

Results

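A set of 10 genes of the endothelium, the cell layer that lines blood vessels, was followed in backfat of Iberian pigs fed a control diet (C), dry olive pulp (DOP) or wet crude olive cake (WCOC). CLDN5, CA4, ADGRF5 and ARAP3 were chosen by their rise in WCOC compared with C in these same libraries, so their levels are given as a description, without a test in any comparison. PECAM1, CDH5, VWF, KDR, TEK and TIE1, called the lineage genes here, were added because they are general genes of the same cell type. Of the 10 genes, 9 could be matched to 1 of the 30477 Ensembl identifiers of the count files, and all 9 passed the filter on low counts. VWF was not analysed here, since the tables used pair none of those identifiers with it.

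Capillary endothelial cells form a barrier that is held together by tight junctions, of which claudin-5 is a main component, and by adherens junctions built on VE-cadherin, the product of CDH5. In fat, the capillary network carries fatty acids and hormones to and from the adipocytes, and its growth and stability depend on VEGF, sensed by KDR, and on angiopoietins, sensed by TEK together with TIE1. A carbonic anhydrase anchored to the luminal face of capillaries (CA4), an adhesion G protein-coupled receptor (ADGRF5) and a GTPase-activating protein regulated by phosphoinositides (ARAP3) complete the set.

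RNA-seq was performed on backfat biopsies of 15 Iberian pigs, 5 per diet, with 1 library per pig. The C group received compound feed only, the DOP group compound feed that contained dry olive pulp, and the WCOC group another compound feed together with a silage of wet crude olive cake and barley straw. Each diet was fed in 1 pen over the growing period, so pen and diet cannot be told apart, and the pigs were picked among a larger herd for the amount and quality of their RNA. The sample labels give breed, tissue and diet but no age or sex, and no genetic modification was involved. Between 22373715 and 34745218 counts fell on genes per library. Levels are CPM after TMM scaling, that is counts relative to the scaled library total, given as mean ± SD of 5 libraries. A gene was called a DEG when its edgeR quasi-likelihood test gave a Benjamini-Hochberg adjusted p under 0.05 over 14918 tested genes together with a log2FC of at least 0.58 in size. The median log2FC over all tested genes was 0.0043 for WCOC vs. C, 0.011 for DOP vs. C and 0.00067 for WCOC vs. DOP. ADIPOQ, the adipocyte hormone adiponectin, averaged 5009 CPM over the 15 libraries. Since whole tissue was sequenced, a different number of endothelial cells and a different amount of RNA of a gene per cell cannot be told apart. Flow cell and lane are not in the sample labels and were inferred from the run identifiers of the libraries. By this reading, all DOP libraries and C replicate 5 came from 1 flow cell (B). The other 4 C libraries and all WCOC libraries came from another (A). For WCOC vs. DOP, flow cell and diet thus cannot be told apart. The inferred lanes do not match the number of samples per lane that the paper describes, so fits by flow cell or lane rest on this inference.

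The 9 measured genes lie on 7 chromosomes of Sscrofa11.1. In the RefSeq annotation, CLDN5 (ENSSSCG00000041667) is a single-exon gene at chr14:51161490-51162382, on the minus strand. CA4 (ENSSSCG00000023186) lies at chr12:37962951-37972443, ADGRF5 (ENSSSCG00000001725) at chr7:41640256-41769422 and ARAP3 (ENSSSCG00000014391) at chr2:143304076-143327588, all on the minus strand. Among the lineage genes, PECAM1 (ENSSSCG00000017277) and CDH5 (ENSSSCG00000035772) are on the plus strand at chr12:14667643-14723296 and chr6:27108560-27142145. KDR (ENSSSCG00000008844), TEK (ENSSSCG00000005122) and TIE1 (ENSSSCG00000003950) are on the minus strand at chr8:41809116-41856379, chr1:195938177-196052294 and chr6:167919662-167947253. CA4, ARAP3, PECAM1 and TEK each overlap an uncharacterised locus on the opposite strand. The strand option of the counting is not given in the sources used here, so their counts may hold reads of that locus or lack reads shared with it.

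The 250 bases before the annotated start are shown for ARAP3, whose level followed the lineage genes most closely of the 4 selected genes across libraries of a diet, and for CLDN5, which followed them less. Capitals mark a match, on either strand, to 1 of the motifs AGGAAG or CGGAAG (the core bound by ETS factors), AGATAA (bound by factors of the GATA family), AACAAT (bound by SOX factors) and TATAAA (the TATA box). The sequences are RefSeq Sscrofa11.1 and read from 5′ to 3′ on the strand of the gene.
ARAP3, chr2:143327589-143327838, minus strand: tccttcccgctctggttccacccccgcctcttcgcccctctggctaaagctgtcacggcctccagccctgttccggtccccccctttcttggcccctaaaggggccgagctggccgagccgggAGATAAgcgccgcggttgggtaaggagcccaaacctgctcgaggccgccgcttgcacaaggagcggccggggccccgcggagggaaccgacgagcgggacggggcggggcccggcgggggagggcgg
CLDN5, chr14:51162383-51162632, minus strand: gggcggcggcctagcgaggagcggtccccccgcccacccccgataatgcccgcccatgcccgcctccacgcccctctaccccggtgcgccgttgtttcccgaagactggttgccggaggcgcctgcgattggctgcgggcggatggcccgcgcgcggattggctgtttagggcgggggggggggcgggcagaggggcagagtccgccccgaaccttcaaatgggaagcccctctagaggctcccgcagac
ARAP3 held AGATAA 127 bases before its start, a motif present in 8.08% of 19559 such windows of the annotation, and none of the other motifs. CLDN5 held none of them. An ETS motif in either form was present in 36.9% of all windows, AACAAT in 7.07% and TATAAA in 9.77%. ARAP3 and CLDN5 each had a GC content of 72.8%, with 26 and 27 CpG pairs. The annotated starts of CDH5, TIE1 and ADGRF5 lie 11271, 6752 and 59574 bases from the coding start, so other starts may be used in fat. That of ARAP3 lies 1703 bases from it, with 10 annotated transcripts, so the window shown may not precede the start used in fat. A match is a string of letters and no record of binding.

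**Figure D1:**
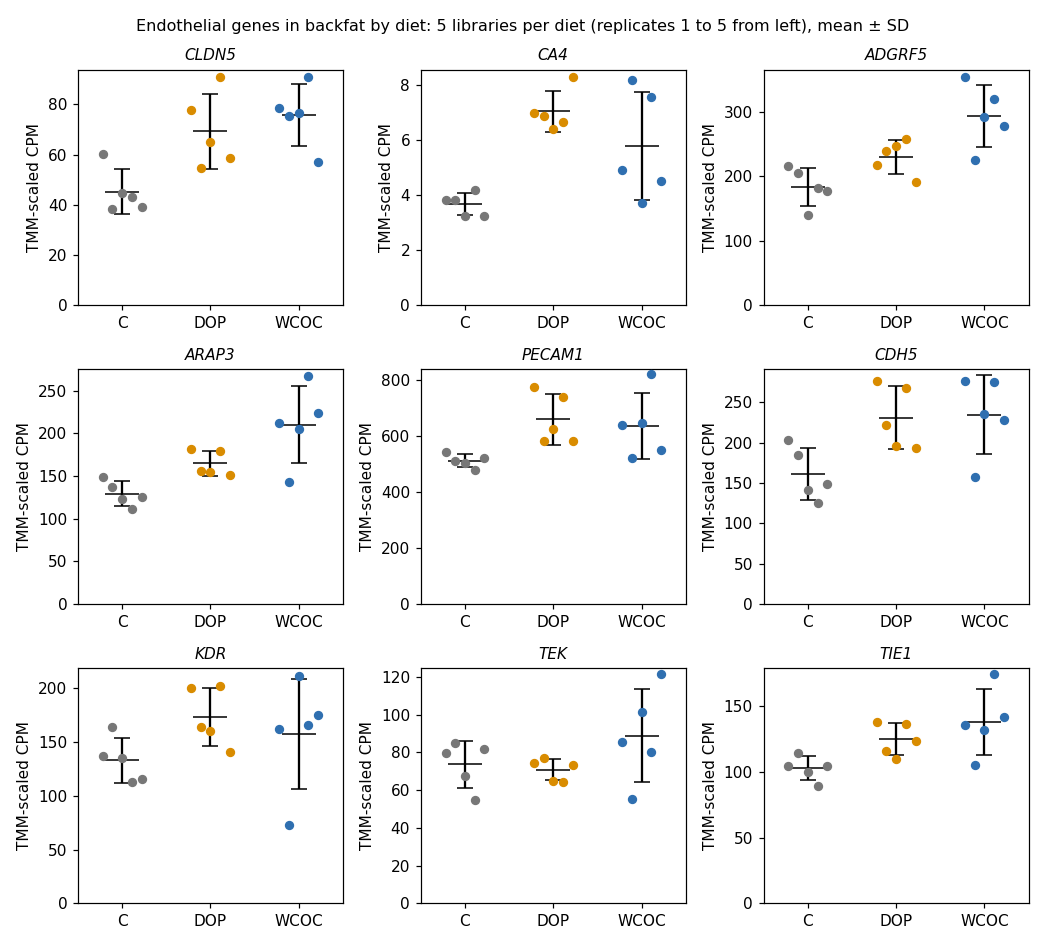
TMM-scaled CPM (vertical axis, starting at 0) of the 9 measured endothelial genes in each library, by diet, with replicates 1 to 5 from left to right and bars for mean ± SD of 5 libraries. CA4, ARAP3 and PECAM1 are separated between C and DOP, and ADGRF5 between C and WCOC. WCOC replicate 2 is the lowest WCOC library for KDR at 73.2 CPM and the highest for CA4 at 8.16 CPM.

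Scaled to the length of the annotated exons, PECAM1 had the highest level, 170 CPM per kb over all 15 libraries, and CA4 the lowest, 4.77 CPM per kb. CLDN5 (71.0), CDH5 (53.8), ADGRF5 (43.0), ARAP3 (29.9) and KDR (25.4) lay between them, and TEK, with 12.1 CPM per kb, and TIE1 just below it were the lowest but for CA4. The order rests on RefSeq exons, and the CLDN5 model has only 893 bp.

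CLDN5 had 60.3, 38.3, 44.8, 43.2 and 39.3 CPM in the C libraries (replicates 1 to 5 in order, as in all such series here). The DOP libraries had 77.7, 54.5, 64.9, 90.8 and 58.4 CPM and the WCOC libraries 78.4, 75.5, 76.6, 91.1 and 56.9 CPM. C replicate 1 lay above the lowest library of each olive diet, and the other 4 C libraries lay below all of them. The log2FC was 0.75 (SE 0.16) for WCOC vs. C, 0.62 (SE 0.16) for DOP vs. C and 0.13 (SE 0.16) for WCOC vs. DOP. For this tight junction gene the means of both olive diets were thus less than 1 SE apart.

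CA4 rested on the fewest reads of the set, 78 to 238 counts per library. In C it had 3.82, 3.80, 3.25, 4.17 and 3.25 CPM, in DOP 6.99, 6.86, 6.39, 6.64 and 8.29 CPM, and in WCOC 4.91, 8.16, 3.72, 7.56 and 4.51 CPM. Every DOP library was above every C library. The WCOC libraries were spread out, with replicates 2 and 4 at the level of DOP and the other 3 nearer to C. CA4 thus had its highest mean in DOP, with a log2FC of 0.94 (SE 0.20) for DOP vs. C, 0.66 (SE 0.20) for WCOC vs. C and −0.29 (SE 0.19) for WCOC vs. DOP. Without WCOC replicate 2 its log2FC for WCOC vs. C was 0.49.

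ADGRF5 had 216, 205, 139.5, 182 and 176 CPM in C and 218, 239, 247, 257 and 191 CPM in DOP. The WCOC libraries had 354, 225, 291, 320.2 and 277 CPM, each above the highest C library, and 4 of them above the highest DOP library. The log2FC was 0.68 (SE 0.14) for WCOC vs. C, 0.33 (SE 0.14) for DOP vs. C and 0.35 (SE 0.14) for WCOC vs. DOP. DOP therefore stood midway between the other diets on the log2 scale.

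ARAP3 showed the same order of diets. Its levels were 149, 138, 123, 112 and 126 CPM in C, 182, 156, 155, 179.5 and 152 CPM in DOP, and 212, 143, 205, 268 and 223 CPM in WCOC. All DOP libraries lay above all C libraries, and WCOC replicate 2 was the only WCOC library within the range of C. The log2FC was 0.70 (SE 0.13) for WCOC vs. C, 0.35 (SE 0.13) for DOP vs. C and 0.35 (SE 0.13) for WCOC vs. DOP. Of the 4 selected genes, CA4 lay nearest to the limit of 0.58 from above in WCOC vs. C, and CDH5, at 0.55, was the lineage gene nearest to it from below.

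The lineage genes were tested, since they were not chosen by their rise in WCOC, though earlier results of these data were known. The selected gene ARAP3 followed their mean within diets (r = 0.96), so their tests are not independent of the selection. In WCOC vs. C all 5 had a log2FC above 0, with a median of 0.31, while 50.6% of all tested genes did. With edgeR 0 of the 5 were called, and the background was 6.25% of genes called, 2.33% higher and 3.93% lower. The unadjusted p was under 0.05 for 3 of them, compared with 26.4% of all genes, and DESeq2 and limma-voom called 0.

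CDH5, which encodes the cadherin of endothelial adherens junctions, had 204, 185, 141, 125 and 149 CPM in C, 276, 222, 196, 267 and 194 CPM in DOP and 277, 157, 236, 276 and 228 CPM in WCOC. C replicate 1 reached into the range of both olive diets and C replicate 2 into that of WCOC. For WCOC vs. C the log2FC was 0.55 (SE 0.17, 95% interval 0.18 to 0.91), with an adjusted p of 0.0554 in the edgeR test. Leaving out WCOC replicate 2 gave 0.65 (adjusted p = 0.0153) and leaving out C replicate 1 gave 0.64 (adjusted p = 0.0378), both past the limits for a DEG. Over the other settings tried, with no library left out on its own, its adjusted p ran from 0.0178 to 0.339. DOP vs. C gave 0.52 (SE 0.17, adjusted p = 0.147) and WCOC vs. DOP 0.02 (SE 0.17, adjusted p = 0.947).

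PECAM1, the platelet endothelial adhesion molecule at the borders between endothelial cells, was the most evenly expressed gene in C. The C libraries had 545, 512, 503, 481 and 520.4 CPM, which is 512 ± 23.7 CPM. The DOP libraries had 776, 582, 624, 741 and 581 CPM and the WCOC libraries 639, 523, 648, 823 and 549.8 CPM. All DOP libraries lay above all C libraries, and 4 of 5 WCOC libraries did. The log2FC was 0.37 (SE 0.13) for DOP vs. C with an adjusted p of 0.158, and 0.31 (SE 0.13) for WCOC vs. C with an adjusted p of 0.129, so neither passed the edgeR test.

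KDR, the main VEGF receptor of blood vessels, had 137, 164, 135, 113 and 115 CPM in C and 199.9, 163, 159.9, 201 and 141 CPM in DOP. In WCOC it had 162, 73.2, 211, 166 and 175 CPM. Replicate 2 was the lowest of all 15 libraries, and the other WCOC libraries lay between 162 and 211 CPM. The difference was not significant in the edgeR test, at 0.25 (SE 0.21, 95% interval −0.21 to 0.70, adjusted p = 0.484) for WCOC vs. C and 0.38 (SE 0.21, adjusted p = 0.372) for DOP vs. C. Without WCOC replicate 2 the log2FC for WCOC vs. C was 0.42 (adjusted p = 0.0541).

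The angiopoietin receptor genes TEK and TIE1 differed from each other in their pattern over the diets. TIE1 had 105, 114, 100.1, 89.0 and 105 CPM in C, 137, 116, 109.8, 136 and 124 CPM in DOP and 135, 105, 132, 174 and 141 CPM in WCOC. Apart from WCOC replicate 2 and DOP replicate 3, the libraries of the olive diets lay above all C libraries. Its log2FC for WCOC vs. C was 0.42 (SE 0.12) with an adjusted p of 0.0325, below the size limit of 0.58 and so not a DEG, and 0.28 (SE 0.12, adjusted p = 0.228) for DOP vs. C. TEK had 79.5, 85.0, 67.5, 54.9 and 81.7 CPM in C, 74.4, 76.9, 65.0, 64.5 and 73.4 CPM in DOP and 85.7, 55.2, 101, 80.1 and 121 CPM in WCOC. All DOP values of TEK lay within the range of C, with a log2FC of −0.06 (SE 0.17, 95% interval −0.42 to 0.30, adjusted p = 0.902), and WCOC vs. C gave 0.27 (SE 0.17, adjusted p = 0.334). The difference between the 2 receptors in their response was not tested.

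**Figure D2:**
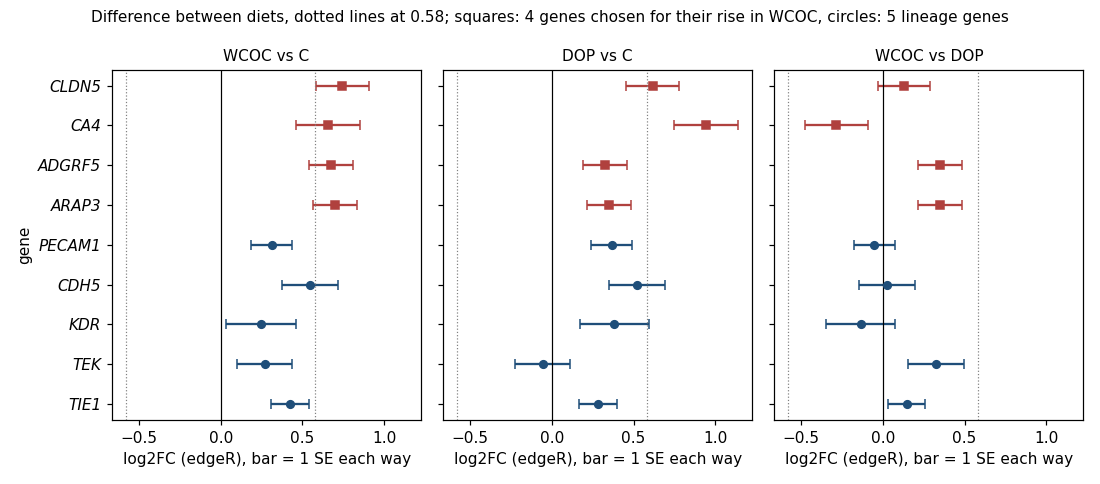
log2FC (horizontal axis) of each gene in WCOC vs. C, DOP vs. C and WCOC vs. DOP, with bars of 1 SE to each side, squares for the 4 selected genes and circles for the lineage genes. In WCOC vs. C all 9 points lie to the right of 0, from 0.25 (KDR) to 0.75 (CLDN5), and in DOP vs. C TEK, at −0.06, is the exception.

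In DOP vs. C, 4 of 5 lineage genes had a log2FC above 0 (median 0.37), compared with 52.2% of all genes. The edgeR test called 0 of 5 against a background of 0.764% called (0.215% higher and 0.550% lower), with 3 at an unadjusted p under 0.05 (background 17.6%) and 0 calls by DESeq2 or limma-voom. Values of 1 of the 5 lineage genes (PECAM1) did not overlap between DOP and C (background 3.47%), and those of 0 between WCOC and C (background 7.62%) or WCOC and DOP (background 8.90%). In WCOC vs. DOP 3 of 5 lineage genes had a log2FC above 0 (median 0.02, background 50.1%), and edgeR called 0 of them (background 7.76% called, 2.65% higher and 5.11% lower), with 0 at an unadjusted p under 0.05 (background 28.1%) and 0 by DESeq2 or limma-voom. The comparisons of DOP and WCOC with C share the C libraries, so their values stand side by side and not as separate evidence.

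Since 4 C and all 5 WCOC libraries shared flow cell A by their run identifiers, WCOC vs. C was also fitted within it. There the log2FC was 0.69 for CLDN5, 0.61 for CA4, 0.65 for ADGRF5 and 0.68 for ARAP3. CDH5 gave 0.51 (adjusted p = 0.139), TIE1 0.42 (adjusted p = 0.102), PECAM1 0.31, TEK 0.30 and KDR 0.19. For DOP, the only library of another diet on flow cell B was C replicate 5. It lay within the range of the other 4 C libraries for 8 of 9 genes and barely below it for CA4, and all 5 DOP libraries lay above it for every gene except TEK. As this is 1 library, flow cell and pig cannot be told apart in it.

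Among the other genes of blood endothelium, 41 were listed as common or capillary genes, 35 had an identifier and 33 were tested. In WCOC vs. C 31 of the 33 had a log2FC above 0 (50.6% of all genes), with a median of 0.37. There 19 had an unadjusted p under 0.05 in the edgeR test (26.4% of all genes). By edgeR 4 were called, all of them higher (ERG, NOS3, GPIHBP1 and MMRN2), while 2.33% of all genes were called higher. The 33 genes followed the lineage genes within diets (median r = 0.69), as did the selected gene ARAP3 (r = 0.96). Their tests are thus not independent of the selection. In DOP vs. C 30 of 33 lay above 0 (median 0.22), compared with 52.2% of all genes. There edgeR called 0 (0.764% of all genes), DESeq2 1 and limma-voom 0, with 11 at an unadjusted p under 0.05 (17.6% of all genes). In WCOC vs. DOP 21 of 33 lay above 0 (median 0.13), compared with 50.1% of all genes. There edgeR (7.76% of all genes called), DESeq2 and limma-voom called 0, and 13 had an unadjusted p under 0.05 (28.1% of all genes). Without WCOC replicate 2 the number called in WCOC vs. C was 7 instead of 4.

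ERG, an ETS transcription factor of the endothelium that binds at many genes of this cell type, had 51.1, 55.4, 43.0, 44.9 and 48.7 CPM in C. In WCOC it rose to 82.3, 59.9, 72.8, 89.9 and 75.0 CPM, each above every C library, with a log2FC of 0.64 (SE 0.10, edgeR adjusted p = 0.00176). DOP libraries had 65.2, 57.2, 61.0, 66.7 and 62.4 CPM, also above every C library, with a log2FC of 0.36 (adjusted p = 0.0974).

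NOS3, the endothelial nitric oxide synthase, had 54.4, 50.4, 45.3, 44.0 and 52.0 CPM in C and 94.8, 66.0, 75.8, 105 and 82.6 CPM in WCOC. The groups did not overlap, and NOS3 rose with a log2FC of 0.78 (SE 0.13, edgeR adjusted p = 0.00264). In DOP it had 61.0, 54.9, 61.4, 81.5 and 56.8 CPM, and WCOC vs. DOP gave 0.43 (adjusted p = 0.0434), under the size limit.

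GPIHBP1 holds lipoprotein lipase on the capillary wall, and it showed the largest log2FC of the 33 genes in WCOC vs. C. It had 66.8, 50.4, 51.9, 47.1 and 45.7 CPM in C and 97.0, 69.3, 77.6, 119.7 and 104 CPM in WCOC, without overlap, and rose with a log2FC of 0.84 (SE 0.19, edgeR adjusted p = 0.0162). DOP libraries ranged from 58.2 to 116 CPM with a log2FC of 0.53 (adjusted p = 0.174).

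MMRN2, a matrix protein of the endothelium, rose from 106 ± 15.9 CPM in C to 160.3 ± 23.5 CPM in WCOC (log2FC 0.59, SE 0.15, adjusted p = 0.0217), again without overlap. It stands close to the limits and was no longer called when C replicate 3, C replicate 4, WCOC replicate 1 or WCOC replicate 4 was left out, while ERG, NOS3 and GPIHBP1 were called in all 15 such fits. Within lane 2 of flow cell A alone 0 of these 4 genes were called. FLT1, another VEGF receptor of blood vessels, had 173 ± 32.1 CPM in WCOC and 129 ± 15.9 CPM in C (log2FC 0.43, adjusted p = 0.0484), under the size limit. ENG and RGCC, the most abundant common and capillary genes, gave −0.19 (adjusted p = 0.420) and 0.36 (adjusted p = 0.137).

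**Figure D3:**
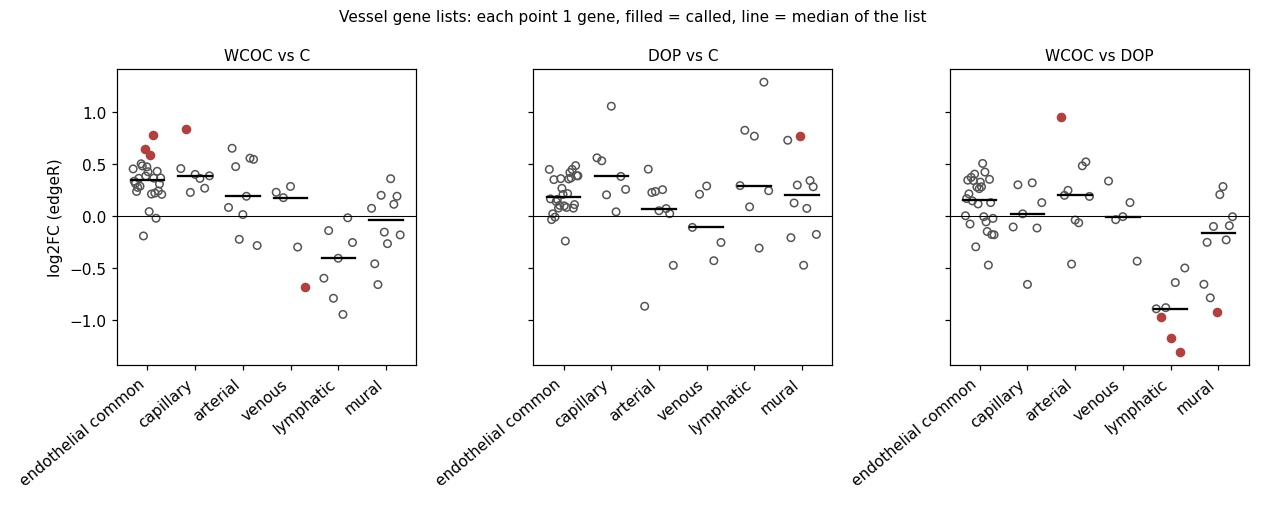
log2FC (vertical axis) of the tested genes of 6 vessel lists in the 3 comparisons, 1 point per gene, with filled points for DEGs and a line at the median of each list. The common endothelial and capillary medians are 0.35 and 0.39 in WCOC vs. C, and the lymphatic median is −0.89 in WCOC vs. DOP.

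Genes of arteries and veins gave few calls. The edgeR shares over all genes were 2.33% called higher and 3.93% lower in WCOC vs. C, and 2.65% higher in WCOC vs. DOP. Of 9 arterial genes edgeR and limma-voom called 0 in WCOC vs. C and DESeq2 1, with 3 at an unadjusted p under 0.05 (26.4% of all genes). Without C replicate 1, 2 or 5, DOP replicate 4 or 5 or WCOC replicate 2 or 3 edgeR called at least 1 of them, and 3 without WCOC replicate 2. SEMA3G, the most abundant, had 124 ± 15.5 CPM in WCOC compared with 84.5 ± 12.2 CPM in C and 86.0 ± 9.82 CPM in DOP. Its libraries in WCOC did not overlap with either diet, and the log2FC of 0.55 (adjusted p = 0.0108) and 0.52 (adjusted p = 0.0126) stayed under the size limit. BMX, a tyrosine kinase of arterial endothelium, was higher in WCOC than in DOP (1.71 ± 0.358 vs. 0.884 ± 0.170 CPM, log2FC 0.95, adjusted p = 0.0121), though not with flow cell as a covariate. Its level in C, 1.62 ± 0.312 CPM, was near that in WCOC. Among 5 venous genes, VCAM1, an adhesion molecule for leukocytes, was called in WCOC vs. C and fell from a median of 94.4 CPM (58.4 to 142) to 55.0 CPM (50.7 to 68.7), with overlap (log2FC −0.69, adjusted p = 0.0302). It was no longer called without C replicate 3 or 5 or WCOC replicate 1, 4 or 5, nor within flow cell A or its lane 2, with the compared diets alone, or with flow cell or the replicate block in the fit.

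Lymphatic vessels are lined by a related endothelium with genes of its own. All 7 lymphatic genes had a log2FC below 0 in WCOC vs. DOP (median −0.89), and edgeR called 3, while 5.11% of all genes were called lower and 50.1% had a log2FC above 0. PROX1, the transcription factor that sets lymphatic identity, had 1.36 ± 0.558 CPM in DOP and 0.543 ± 0.132 CPM in WCOC (log2FC −1.31, adjusted p = 0.0220). Its level in C was 0.551 ± 0.168 CPM. PROX1 rested on few reads, 7 to 19 counts per library in C, 17 to 52 in DOP and 12 to 24 in WCOC. FLT4, the receptor for VEGFC, had 11.4 ± 2.48 and 5.85 ± 1.97 CPM (log2FC −0.97, adjusted p = 0.0157), and MMRN1 9.99 ± 1.89 and 4.41 ± 1.81 CPM (log2FC −1.18, adjusted p = 0.0168). In C, FLT4 had 6.44 ± 1.51 CPM and MMRN1 5.85 ± 1.47 CPM. For all 3 genes the mean of C thus lay nearer to WCOC than to DOP. With flow cell as a covariate 0 of these 3 were called, and PROX1 was not called without DOP replicate 2 or 5 or WCOC replicate 3 or 4, nor with limma-voom. MMRN1 was not called with the replicate number as a block. In DOP vs. C 6 of 7 lymphatic genes lay above 0 (median 0.29). There edgeR and limma-voom called 0 and DESeq2 2, with 3 at an unadjusted p under 0.05 (17.6% of all genes). In WCOC vs. C all 7 lay below 0 (median −0.40). Here edgeR, DESeq2 and limma-voom called 0, with 0 at an unadjusted p under 0.05 by edgeR (26.4% of all genes). PDPN, the most abundant of the list, gave −0.95 in WCOC vs. C (SE 0.45, adjusted p = 0.200).

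The ligands of the receptors were measured in the same libraries. VEGFA had 147 ± 19.1 CPM in C, 174 ± 24.8 CPM in DOP and 157 ± 51.5 CPM in WCOC, with log2FC of 0.24 (adjusted p = 0.549) for DOP vs. C and 0.09 (adjusted p = 0.796) for WCOC vs. C. ANGPT1, which activates TEK, had 12.5 ± 1.72, 12.9 ± 2.23 and 11.9 ± 1.61 CPM. ANGPT2, made by activated endothelium, gave 0.60 (SE 0.17, adjusted p = 0.106) for DOP vs. C and 0.43 (SE 0.17, adjusted p = 0.128) for WCOC vs. C. With edgeR, ANGPT4 was the 1 gene of 9 in this list to be called, in WCOC vs. DOP, where 2.65% of all genes were called higher. It had 8.39 ± 2.38 CPM in WCOC and 5.29 ± 1.10 CPM in DOP (log2FC 0.66, adjusted p = 0.0408). The call was lost without C replicate 2 or 3, DOP replicate 1, 2, 4 or 5 or WCOC replicate 2, 3 or 4. It was also lost in 5 of 9 other settings. In DOP vs. C edgeR and limma-voom called 0 of the 9 genes and DESeq2 2, with 3 at an unadjusted p under 0.05 (17.6% of all genes). There edgeR called 1 without C replicate 1 or 2. NID2, the most abundant of 5 genes of sprouting vessels, gave 0.34 (adjusted p = 0.138) for WCOC vs. C, and the median of that list was −0.06. The tests by edgeR, DESeq2 and limma-voom called 0 of the 5 in any comparison. In each, 1 of them had an unadjusted p under 0.05 (17.6% to 28.1% of all genes). Without C replicate 1, edgeR called 1 of them in DOP vs. C.

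Among 11 partners of the junction genes, MARVELD2, a tight junction protein of corners where several cells meet, was called higher in WCOC than in C (3.58 ± 0.465 vs. 1.92 ± 0.540 CPM, log2FC 0.90, adjusted p = 0.0174), except without WCOC replicate 1, with the replicate block or within flow cell A or its lane 2. It was also called in WCOC vs. DOP (log2FC 0.70, adjusted p = 0.0409), but not without DOP replicate 1, 2, 3 or 5 or any of the WCOC libraries, nor with no filter, the replicate block or flow cell as a covariate. JUP, the most abundant partner, gave −0.33 (adjusted p = 0.179) for WCOC vs. C, and the median of the 11 genes was 0.29, with 3 instead of 1 called without WCOC replicate 2 and more than 1 without C replicate 1 or 2. Over all genes 2.33% were called higher in WCOC vs. C, and in WCOC vs. DOP 2.65% higher and 5.11% lower. Relatives of the 4 selected genes (other claudins, carbonic anhydrases, ADGRF receptors and ARAP proteins) had a median of 0.02 over 12 genes. CA3, an abundant enzyme of adipocytes and muscle, gave 0.50 (SE 0.19, adjusted p = 0.102) in WCOC vs. C and 0.70 (SE 0.19, adjusted p = 0.0898) in DOP vs. C. CA14 was called lower in WCOC than in DOP, where its libraries ranged from 0 to 26.4 CPM, and lost the call without DOP replicate 2, 4 or 5 or any of the WCOC libraries and with limma-voom, the replicate block or flow cell as a covariate.

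The members were also compared within diets, after the mean of each diet was taken from the log2 CPM of its libraries. Over these 15 centred values the 10 pairs of lineage genes had a median Pearson r of 0.71 (0.11 to 0.81). The 6 pairs among the selected genes had a median of 0.26 (−0.23 to 0.62). ARAP3 was close to the lineage genes, with r = 0.92 with TIE1 and 0.90 with CDH5, while CA4 had r = −0.66 with KDR and −0.65 with TEK. With the mean of the lineage genes, r was 0.96 for ARAP3, 0.60 for ADGRF5, 0.32 for CLDN5 and −0.39 for CA4. These values describe 15 libraries that differ in depth, tissue composition and lane, and no p is given. They rest in part on WCOC replicate 2, which deviated from its diet by −1.02 for KDR, −0.53 for ARAP3 and 0.56 for CA4. Values of r without that library are not given here.

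**Figure D4:**
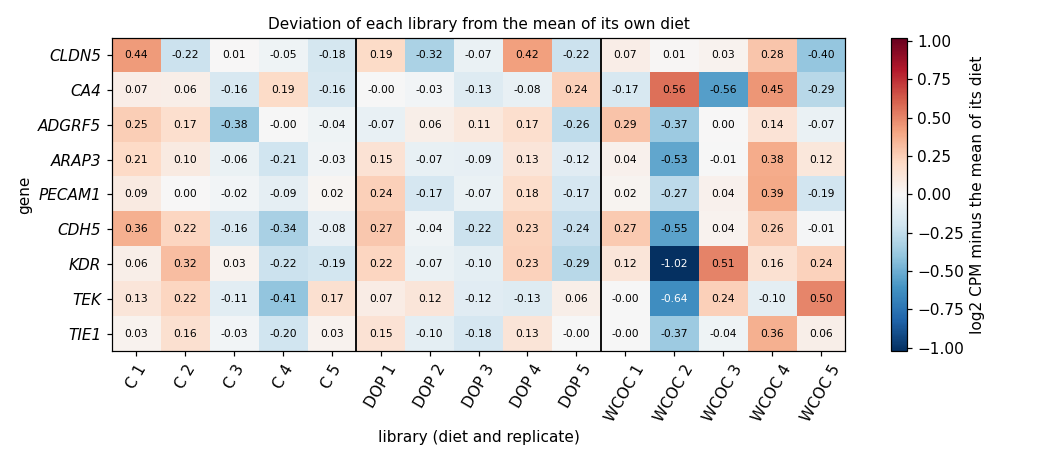
Deviation of each library (columns) from the mean of its own diet, in log2 CPM, for the 9 measured genes (rows). WCOC replicate 2 is below its diet by 1.02 for KDR, 0.64 for TEK and 0.55 for CDH5 and above it by 0.56 for CA4.

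WCOC replicate 2 had the lowest value of its diet for 7 of the 9 genes, and its lineage genes were on average 0.57 log2 units below the mean of WCOC. C replicate 4 had the lowest value of C for 6 genes and DOP replicate 5 that of DOP for 5. The same WCOC library had the highest summed level of 10 macrophage markers in its diet, 326 CPM, where the others had 119.8 to 237 CPM. Its summed level of 8 fibroblast markers was also the highest of WCOC, 25158 CPM compared with 14376 to 18260 CPM. The part of these cell types in the low endothelial values was not tested.

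Relative to the geometric mean of the 5 lineage genes in the same library, ARAP3 stood at 0.852 ± 0.0371 in C, 0.883 ± 0.0223 in DOP and 1.09 ± 0.0892 in WCOC. Its highest value in C was 0.896 and its lowest in WCOC 0.967, so all WCOC libraries, replicate 2 included, were above C. For ADGRF5 the ratio was 1.21 ± 0.173, 1.24 ± 0.171 and 1.53 ± 0.205. For CLDN5 it was 0.299 ± 0.0572, 0.368 ± 0.0528 and 0.405 ± 0.115, and for CA4 0.0244 ± 0.00473, 0.0380 ± 0.00650 and 0.0323 ± 0.0185. As the selection used the rise in WCOC, these ratios are a description.

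Outside the members, and among 11124 genes with a symbol and a mean of at least 1 CPM, the 10 genes most like the mean of the lineage genes within diets were ZBTB46 (r = 0.95), ANKRD13D, JAM2, PIK3R3, ATP8B1, TNFAIP1, JCAD, ZFP30, SOX13 and NTN5 (r = 0.92 to 0.93). The median r was 0.69 for the 33 other endothelial genes and −0.03 for all genes. Their log2FC in WCOC vs. C ran from −0.01 (ZFP30) to 0.60 (JCAD, a protein of endothelial junctions). JCAD (adjusted p = 0.0257) and NTN5, a netrin (log2FC 0.60, adjusted p = 0.00859), were called, though neither without C replicate 3 or 4 or WCOC replicate 4, and JCAD not without WCOC replicate 1. JCAD was also not called with limma-voom, the compared diets alone, the replicate block, flow cell A alone or its lane 2 alone, nor NTN5 in the last 2. The background of WCOC vs. C was 2.33% of all genes called higher. As the 10 genes were picked for their likeness to the lineage genes, their tests are not independent of the selection either. JAM2, a junctional adhesion molecule, gave 0.56 (adjusted p = 0.0231), under the size limit.

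Markers of other cell types moved with the diets beside the endothelial genes. In WCOC vs. C edgeR called 3.93% of all genes lower and 2.33% higher. Of 10 macrophage markers, all had a log2FC below 0 there (median −1.17) and 4 were called lower, CD68, CD163, MRC1 and AIF1. Their summed level ran from 234 to 658 CPM in C, 179 to 446 CPM in DOP and 119.8 to 326 CPM in WCOC, and CSF1R was the most abundant. The number called was 9 without WCOC replicate 2 and 1 without C replicate 3 or 5 or WCOC replicate 1, 3 or 4. Of 8 fibroblast markers, LUM, COL1A1 and COL1A2 fell in WCOC vs. C (median of the list −0.71), and the summed level ran from 22834 to 34420 CPM in C and from 14376 to 25158 CPM in WCOC. Between 1 and 4 of them were called when a library was left out, with 4 without WCOC replicate 2 and LUM called in every such fit, COL1A1 only without DOP replicate 5 or WCOC replicate 2, and COL1A2 not without C replicate 2, 3 or 5 or WCOC replicate 1, 3, 4 or 5. With the compared diets alone, the replicate block, flow cell as a covariate, or the libraries of flow cell A neither collagen was called, nor COL1A1 with no filter, and within lane 2 of flow cell A all 3 were lost. Of 7 cell division genes 6 fell in WCOC vs. C, with summed levels of 41.9 to 72.9 CPM in C and 15.4 to 25.1 CPM in WCOC. ADIPOQ was the 1 of 8 adipocyte markers called in WCOC vs. C (log2FC 0.66, adjusted p = 0.0281), though not without C replicate 2 or 3 or WCOC replicate 1 or 5, nor with the compared diets alone, the replicate block or within flow cell A or its lane 2, and the summed adipocyte level was 11249 to 14740 CPM in C, 13854 to 18037 CPM in DOP and 13458 to 19560 CPM in WCOC.

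Pericytes and smooth muscle cells, which wrap the vessels, were followed by 10 mural markers. Their summed level ran from 1013 to 1249 CPM in C, 1031 to 1350 CPM in DOP and 1037 to 1259 CPM in WCOC, and the median log2FC for WCOC vs. C was −0.04. PDGFRB, the most abundant, gave 0.11 (adjusted p = 0.564), and KCNJ8, a potassium channel of pericytes, was called higher in DOP than in C (log2FC 0.77, adjusted p = 0.0367; not without C replicate 3, 4 or 5, DOP replicate 2, 3, 4 or 5 or WCOC replicate 3, nor with limma-voom, the compared diets alone, the replicate block or flow cell as a covariate) and lower in WCOC than in DOP (log2FC −0.92, adjusted p = 0.00307), except with flow cell as a covariate. Over all genes 0.215% were called higher in DOP vs. C and 5.11% lower in WCOC vs. DOP. Skeletal muscle markers summed to 31.0, 9152, 193, 5162 and 40625 CPM in DOP, to 42.6 to 3151 CPM in C and to 16.5 to 627 CPM in WCOC, so DOP replicates 2, 4 and 5 lay above every C and WCOC library. The median log2FC of the 4 tested muscle markers was 3.41 for DOP vs. C. Markers of T cells summed to 3.33 to 21.8 CPM over all libraries, those of blood to 905 to 15721 CPM and those of the epidermis to 1.61 to 128 CPM. The part of these cell types in the values of the endothelial genes was not tested.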

How the data were processed

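The deposited files hold raw counts, 1 file per pig. The authors aligned untrimmed paired reads to Sscrofa11.1 with HISAT2, set as strand-specific, and counted them with HTSeq. Tool versions, annotation release and strand option are not given in the sources used here. Each file lists 30477 genes and 5 summary lines, which took 23.4% to 32.8% of a library and were left out.

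Here edgeR 4.0.16 in R 4.3.3 was used with filterByExpr by diet (14918 genes), TMM scaling and a quasi-likelihood fit of 1 mean per diet to all 15 libraries (common dispersion 0.0814). Tests were two-sided and their p-values adjusted by Benjamini-Hochberg across the 14918 genes. Log2 CPM for correlations used a prior count of 1. The workflow was tested on simulated data. The median library had 27522449 counts on genes for C, 29104570 for DOP and 27098819 for WCOC. The libraries come from separate pigs. The sources used here describe no pairing of the pigs by the replicate numbers of the labels.

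Symbols came from RefSeq and Ensembl tables (11955 tested genes matched). The genes, and 18 further lists with 182 genes (154 with an identifier, 150 tested), were chosen with earlier results of these data known. Named are all members, the most abundant and every called gene of a list (up to 3 in each direction), VEGFA, ANGPT1, ANGPT2 and FLT1, and the 10 genes with the highest r with the lineage genes (mean of at least 1 CPM). Alternatives were the size factors of DESeq2 1.42.0, TMM factors computed with the muscle, macrophage and cell division lists and the 50 top genes dropped, leaving low genes in, keeping genes with 10 or more counts in each library, DESeq2 or limma-voom (limma 3.58.1) as the test, the compared diets alone, flow cell or replicate number as a term, flow cell A or its lane 2 by itself, and each library left out. The windows before the other genes are not reported here.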

Additional observations from a re-analysis of the deposited data

How the results depend on the processing

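CA4 rests on few counts. Of 261 alternative log2FC of the 9 genes 260 kept their direction and side of the limits, or for selected genes moved by less than 1 SD. Of 405 with 1 library left out 396 did. In WCOC vs. C the log2FC stayed above 0 in all 104 fits of the selected genes (0.49 to 0.86) and all 130 of the lineage genes (0.11 to 0.65). CDH5 became called in WCOC vs. C without C replicate 1 or WCOC replicate 2 (0.64 and 0.65), and the other exceptions were changes of sign in WCOC vs. DOP. There CDH5 gave −0.11 with flow cell as a covariate and −0.042 to 0.14 with 1 library left out, PECAM1 −0.15 to 0.0088 and KDR −0.26 to 0.043. The selected gene CLDN5 also changed sign there, to −0.12 with flow cell as a covariate, which the looser limit for selected genes does not count.

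The number of all genes called in WCOC vs. C (933) was 473 with the replicate block, 486 within flow cell A, 34 within its lane 2 (8 higher) and 468 to 1163 with 1 library left out, with the low values without C replicate 3 (532) or WCOC replicate 1 (468) or 4 (596). In DOP vs. C (114) it was 496 with DESeq2, 19 with limma-voom, 2 with the compared diets alone, 0 with the replicate block and 0 to 200 with 1 library left out, so the background share of that comparison is not stable. In WCOC vs. DOP (1158) it was 561 with the replicate block, 1 with flow cell as a covariate and 639 to 1291 with 1 library left out. The other endothelial genes called in WCOC vs. C (4) were 0 within lane 2 and 3 to 7 with 1 library left out. In DOP vs. C they were 1 with DESeq2 and 0 to 1 with 1 library left out, in WCOC vs. DOP 0 to 1. For the lineage genes the range was 0 to 1 in WCOC vs. C. Deviations of samples with the same number had r from −0.50 to 0.34, and from −0.50 to −0.12 in DOP vs. C. So few values cannot show whether the numbers pair the pigs, and no pairing is described. The cause of these changes was not tested.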

Other observations

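PLVAP, which builds the diaphragms of fenestrated capillaries, had 268, 222, 239, 147 and 177 CPM in C, 259, 302, 281, 302 and 295 CPM in DOP and 208, 170.0, 254, 198 and 208 CPM in WCOC. All DOP libraries lay above all WCOC libraries, and the log2FC for WCOC vs. DOP was −0.47 (SE 0.15, edgeR adjusted p = 0.0465), under the size limit. RBP7, a retinol-binding protein of capillaries in fat, had 22.2 to 35.7 CPM in C, 49.4 to 68.1 CPM in DOP and at most 55.2 CPM in WCOC (mean 37.4 ± 18.6), with a log2FC of 1.06 (SE 0.31, adjusted p = 0.112) for DOP vs. C. As for CA4, its DOP libraries were all above its C libraries and its WCOC libraries were the most spread, but WCOC replicate 2, the highest WCOC library for CA4, was the lowest for RBP7. Both genes were picked after their values were seen.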
